A study of Mus musculus with 23 samples.

Results

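Transcripts of the genes that make, cut and bind hyaluronan were followed in primary mouse embryonic fibroblasts (MEFs) that carried 4 forms of the glucocorticoid receptor (GR). The set held 7 of the 55487 genes in the count table, chosen by symbol and matched through their Ensembl identifiers. They were the synthases Has1, Has2 and Has3, the hyaluronidases Hyal1 and Hyal2, the receptor Cd44 and Tnfaip6, which encodes the hyaluronan-binding protein TSG-6. The study asked how receptors with an impaired dimer respond to a low concentration of dexamethasone (Dex), a synthetic glucocorticoid. Cells were given 10 nM Dex or solvent (vehicle) for 5 h and profiled by RNA-seq.

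All cells came from mid-gestation embryos of strain FVB/NJ, and each of the cultures of a genotype came from another mouse. GRwt/wt cells had the unmutated receptor. GRD/D cells were homozygous for a mutation of the DNA-binding domain at its dimer interface (alanine to threonine), GRL/L cells for a mutation of the ligand-binding domain (isoleucine to alanine), and GRD+L/D+L cells for both mutations in 1 protein. The L and D+L alleles were made by CRISPR/Cas9 in zygotes and backcrossed, and no animal homozygous for either allele was born alive. The 8 groups held 23 libraries, 2 in GRD/D vehicle and 3 in every other group.

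Hyaluronan is a long unsulfated sugar polymer of the extracellular matrix, and it is abundant in loose embryonic connective tissue. Synthases in the plasma membrane build it from UDP-sugars and push the growing chain out of the cell. Hyal2 cuts the polymer at the cell surface and Hyal1 degrades the fragments in lysosomes, while CD44 is the main surface receptor that anchors it. TSG-6 is secreted under inflammatory stimulation and moves heavy chains of the serum inter-alpha-inhibitor family onto hyaluronan, which crosslinks the matrix. Glucocorticoids are known to lower Has2 mRNA in cultured skin fibroblasts.

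Across 13 comparisons, the change that passed the test was confined to Tnfaip6, which was 4.09-fold lower in GRD+L/D+L than in GRwt/wt cells in vehicle and 3.53-fold lower under Dex. None of the 6 members tested passed the test for Dex in any genotype. The test was the edgeR quasi-likelihood F-test on 15748 genes. A call needed a p of 0.05 or less after Benjamini-Hochberg adjustment and a log2 fold change (LFC) of 1 or more in size.

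Library totals ran from 16.5 M to 23.1 M counts, and levels are given in CPM, counts per M library counts, after TMM scaling. The cells showed the fibroblast markers (10 genes, summed level 32835 to 57370 CPM). The macrophage markers (12 genes) summed to 16.7 to 106 CPM in GRwt/wt libraries other than vehicle replicate 3, which stood at 5188 CPM, to 6.15 to 86.9 CPM in GRD+L/D+L, 327 to 814 CPM in GRL/L and 287 to 1838 CPM in GRD/D. No macrophage marker was at 0 in every library of a genotype, and GRD+L/D+L libraries had counts for 7 to 12 of the 12. Summed markers of other cell types reached at most 20.9 CPM (endothelial), 5.79 CPM (epithelial), 292 CPM (cartilage), 210 CPM (muscle) and 345 CPM (proliferation). Of the 5 muscle markers, Des was at 210 and 140 CPM in GRwt/wt vehicle and Dex replicate 1, while Myod1, Myog, Actc1 and Myh3 were at 0 in the first and at 0.101 CPM or less in the second. The muscle sum was at most 19.5 CPM elsewhere, and the cartilage sum was 240 and 292 CPM in GRD+L/D+L replicate 1 (mostly Col2a1, at 184 and 231 CPM) and 10.5 to 17.1 CPM in replicates 2 and 3. GRwt/wt vehicle replicate 1 stood apart. The library most like it correlated with it at a Spearman rho of 0.916, against 0.973 to 0.997 for the others. Its deviations from the median of the 23 libraries followed transcript GC content (rho = 0.688 across genes, against -0.201 to 0.331 for the others). Known Dex-responsive genes answered in GRwt/wt cells: Fkbp5, a receptor co-chaperone gene, had an LFC of 3.49 (SE 0.27, edgeR adjusted p = 2.67e-06). In the mutants its LFC was 0.07 in GRD+L/D+L, 0.12 in GRL/L and 1.68 in GRD/D (edgeR adjusted p = 0.137). Tsc22d3 had an LFC of 1.92 in GRwt/wt (edgeR adjusted p = 0.00272) and 0.00 to 0.18 in the mutants. In bulk libraries, fewer cells of a type and less RNA per cell cannot be told apart.

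Per transcript length, averaged over the 23 libraries, Cd44 had the highest level of the members at 15.8 FPKM (CPM per kilobase of exon) and Hyal2 followed at 12.8 FPKM. Has2 and Tnfaip6 stood at 4.43 and 4.19 FPKM and Hyal1 at 2.87 FPKM. Hyal1 shares 1920 of its 3777 exon bases with Naa80 on the same strand. Reads there could not be assigned with certainty, so the place of Hyal1 in this order is uncertain. Has3 (0.0548 FPKM) and Has1 (0.0431 FPKM) were close to the detection limit. Has2 therefore carried most of the synthase transcripts, with a median of 97.9% of the summed synthase FPKM and 92.9% or more in every library except GRwt/wt vehicle replicate 1, where its share was 62.1%.

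**Figure D1:**
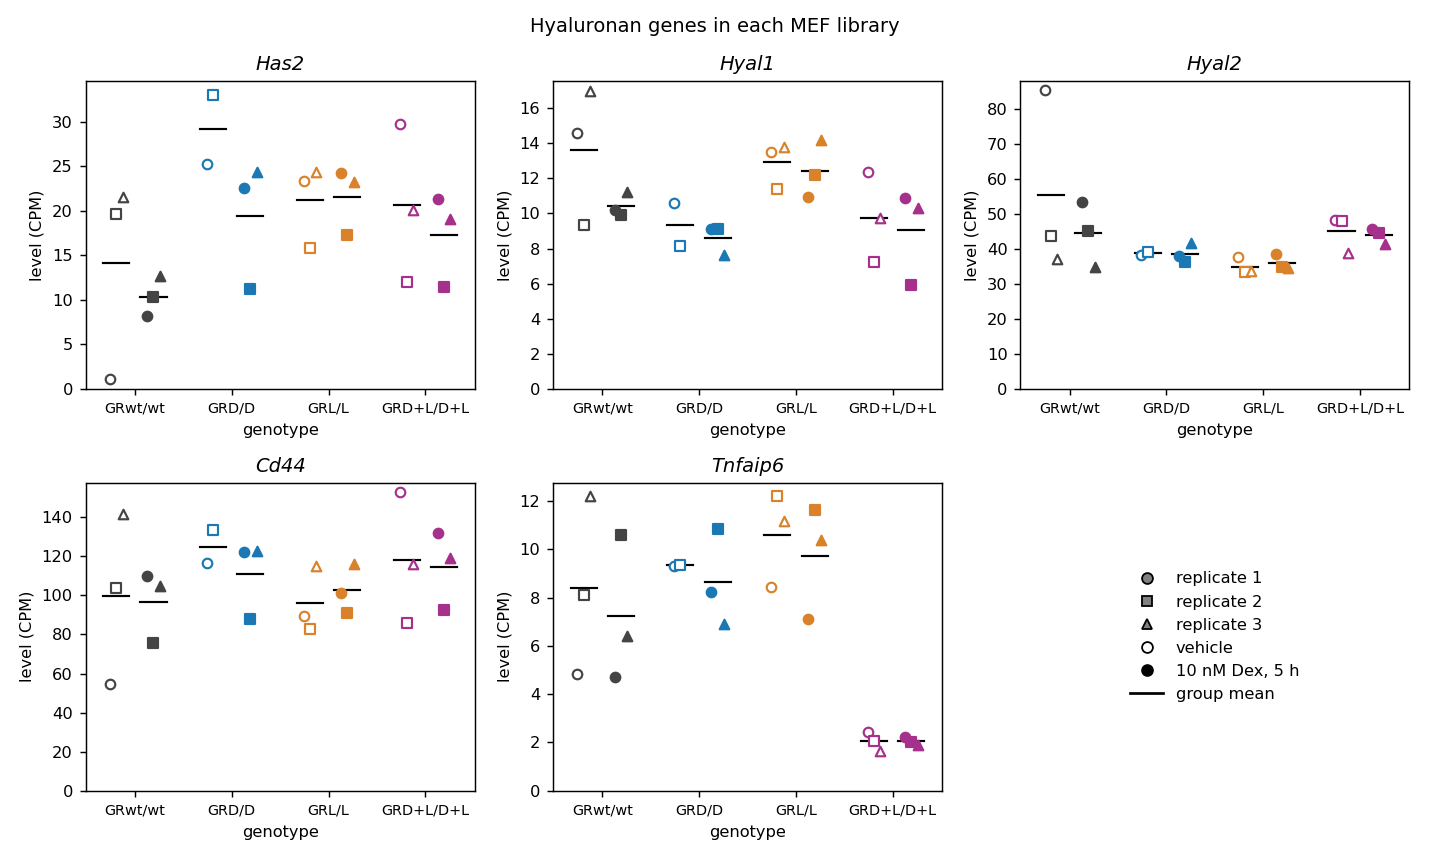
Level in CPM (y axis) of the 5 members with more than a few counts, by genotype (x axis), with open symbols for vehicle, filled symbols for Dex, a symbol shape for each replicate number and a bar for the group mean. The 6 GRD+L/D+L libraries lie at 1.65 to 2.44 CPM of Tnfaip6, below all others, and GRwt/wt vehicle replicate 1 is the lowest library for Has2 (1.16 CPM) and Cd44 (54.6 CPM) and the highest for Hyal2 (85.3 CPM).

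Has2 (GRCm38, chr15:56665627-56694539, minus strand) encodes the main hyaluronan synthase of connective tissue cells. In GRwt/wt cells it was measured at 1.16, 19.6 and 21.5 CPM in vehicle replicates 1 to 3 and at 8.14, 10.3 and 12.7 CPM under Dex. The vehicle libraries thus split into a pair above all Dex libraries and the library that stands apart, which lay below them. GRL/L cells had 23.4, 15.8 and 24.4 CPM in vehicle and 24.2, 17.3 and 23.2 CPM under Dex. Here both treatments covered the same range, and replicate 2 was the lowest in each. GRD/D cells had 25.3 and 33.0 CPM in vehicle and 22.6, 11.2 and 24.3 CPM under Dex, with all Dex libraries below both vehicle libraries (true of 10.5% of the genes tested). The lowest of them, replicate 2, also had the highest macrophage marker sum of that genotype (1838 CPM), and the part of this in its Has2 level was not tested. GRD+L/D+L cells had 29.7, 12.0 and 20.1 CPM in vehicle and 21.3, 11.4 and 19.1 CPM under Dex, so that replicates ranked 1, 3, 2 in each treatment.

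The Has2 response to Dex did not pass the test in any genotype. In GRwt/wt cells the LFC was -0.45 (SE 0.60, 95% interval -1.72 to 0.83, edgeR adjusted p = 0.746). That value rested on single vehicle libraries: it was -0.99 without replicate 1 (edgeR adjusted p = 0.201), -0.13 without replicate 2 and 0.02 without replicate 3. Replicate 3, with the macrophage sum of 5188 CPM, and replicate 2, with 17.6 CPM, had Has2 at 21.5 and 19.6 CPM. The Has2 transcript is of low GC content (40.6%, percentile 8.5 of the tested genes). In vehicle replicate 1 its deviation from the median of the other libraries was -3.67 log2 units. The part of GC content in this was not tested. With that library set aside, the Dex libraries lay below both vehicle libraries, which was true of 8.91% of the 15748 genes tested. The mutant LFCs were 0.03 for GRL/L (SE 0.60, 95% interval -1.23 to 1.28), -0.25 for GRD+L/D+L (SE 0.60) and -0.59 for GRD/D (SE 0.66). In GRL/L cells, whose same-numbered vehicle and Dex libraries deviated together, the log2 ratios of Dex to vehicle were 0.05, 0.13 and -0.07 for replicates 1 to 3. The corresponding ratios in GRD+L/D+L were -0.48, -0.07 and -0.07.

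The difference between the Has2 responses was tested as an interaction. Relative to GRwt/wt it was 0.47 for GRL/L (SE 0.85), 0.19 for GRD+L/D+L (SE 0.85) and -0.14 for GRD/D (SE 0.90), with edgeR adjusted p-values of 0.932, 0.986 and 0.984. Without GRwt/wt vehicle replicate 1 the GRL/L difference was 1.02 (edgeR adjusted p = 0.634), the GRD+L/D+L difference was 0.73 and the GRD/D difference 0.39. Under Dex, Has2 had an LFC against GRwt/wt of 1.06 for GRL/L (SE 0.61, 95% interval -0.22 to 2.33), 0.90 for GRD/D and 0.74 for GRD+L/D+L (edgeR adjusted p = 0.312, 0.696 and 0.522). The 3 GRwt/wt Dex libraries lay below all 6 GRL/L libraries, as did 19% of the genes tested.

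Has1 (chr17:17843323-17855205, minus strand) encodes a synthase that is usually silent or low in resting fibroblasts. It had 0 to 13 counts in a library and did not pass the filter on low counts. It had 9, 13 and 7 counts in the GRwt/wt Dex libraries, 8, 3 and 2 in GRwt/wt vehicle and 0 to 7 in the mutants. Dex and vehicle overlapped in GRwt/wt, while in CPM the 3 GRwt/wt Dex libraries (0.437 to 0.609) lay above the 17 mutant libraries (0.362 or less), as did 2.22% of the genes tested. Fitted without the filter, its LFC for Dex in GRwt/wt was 1.15 (edgeR adjusted p = 0.765). Against GRwt/wt under Dex it was -1.68 for GRL/L, -2.69 for GRD/D and -2.08 for GRD+L/D+L (edgeR adjusted p = 0.431, 0.405 and 0.353), which did not pass the test. Has3 (chr8:106870242-106884566, plus strand), which encodes a further synthase, had 0 to 17 counts in a library. For Dex against vehicle its LFC ran from -1.49 (SE 0.92) in GRD/D to 0.86 (SE 0.71) in GRD+L/D+L, and none was called. Under Dex Has3 had 3, 7 and 0 counts in GRwt/wt and 15, 11 and 11 counts in GRD+L/D+L, which do not overlap (true of 15.3% of genes tested, on the CPM scale). The LFC was 2.01 (SE 0.76, edgeR adjusted p = 0.138), so the difference was not called.

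The hyaluronidases showed smaller spreads than Has2. Hyal2 (chr9:107567945-107572779, plus strand), the enzyme of the cell surface, ranged from 33.3 to 85.3 CPM, with the top value in GRwt/wt vehicle replicate 1 and all others at 53.4 CPM or less. In vehicle it was 55.3 ± 26.2 CPM (SD, n = 3) in GRwt/wt and 34.9 ± 2.50 CPM (SD, n = 3) in GRL/L. The LFC of -0.66 (SE 0.22) passed the adjusted p (edgeR, 0.0401) but not the fold threshold, as did the adjusted p of 23% of the genes tested. Without GRwt/wt vehicle replicate 1 it was -0.21 (edgeR adjusted p = 0.295). Hyal1 (chr9:107576927-107581710, plus strand), the lysosomal enzyme, ranged from 5.92 to 17 CPM. Its highest library was GRwt/wt vehicle replicate 3, the one with the macrophage marker sum of 5188 CPM, and its lowest were both replicates 2 of GRD+L/D+L (7.23 and 5.92 CPM), where that sum was 7.50 and 6.15 CPM. Other libraries did not follow that order: GRD/D Dex replicate 2, with the second highest sum (1838 CPM), had Hyal1 at 9.11 CPM, and GRwt/wt vehicle replicate 1, with a sum of 41.1 CPM, had it at 14.6 CPM. The part of these cells in the Hyal1 level was not tested. LFCs of Hyal1 ranged from -0.39 to -0.05 for Dex and from -0.54 to 0.25 between genotypes, and none was called.

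Cd44 (chr2:102811141-102901665, minus strand), the surface receptor, ranged from 75.8 to 152.8 CPM in 22 libraries and was at 54.6 CPM in GRwt/wt vehicle replicate 1. For Dex its LFC lay between -0.17 in GRD/D and 0.10 in GRL/L, and in GRwt/wt it was -0.05 (SE 0.28, 95% interval -0.63 to 0.54). In GRwt/wt the levels were 54.6, 103.7 and 141.6 CPM in vehicle and 109.9, 75.8 and 105 CPM under Dex, and the LFC was -0.34 without vehicle replicate 1 and 0.32 without vehicle replicate 3. Against GRwt/wt the mutants differed by -0.06 to 0.32.

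For the 6 members that passed the filter, Dex gave 0 calls in GRwt/wt, where 0.159% of all genes were called, and 0 calls in the mutants, where 0% were called. No member reached an unadjusted p under 0.05 for Dex, while 15.6% of all genes did in GRwt/wt, 0.978% in GRD/D, 0.343% in GRD+L/D+L and 0.273% in GRL/L. DESeq2 also called 0 members, beside 1.86% of all genes in GRwt/wt, 0.0318% in GRD+L/D+L, 0.0127% in GRD/D and 0% in GRL/L. The median member LFC was -0.35 in GRwt/wt, -0.04 in GRD+L/D+L, -0.14 in GRD/D and 0.04 in GRL/L, against -0.01 to 0.00 over all genes tested. All 6 LFCs were below 0 in GRwt/wt and GRD/D, but with a replicate block Has2 (0.10) and Cd44 (0.03) were above 0 in GRwt/wt and Tnfaip6 (0.02) in GRD/D. The interactions gave 0 member calls as well, where 0% of all genes were called for the GRD/D response and 0.0254% for each of the others. At an unadjusted p under 0.05 there were 0 members, beside 6.29% of genes for the GRL/L, 7.11% for the GRD/D and 5.05% for the GRD+L/D+L response. DESeq2 called 0 members, beside 0.127%, 0.104% and 0.143% of genes in the same order, and gave no adjusted p for Has3 and Tnfaip6 in the GRD/D response. These 3 comparisons share the GRwt/wt libraries.

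**Figure D2:**
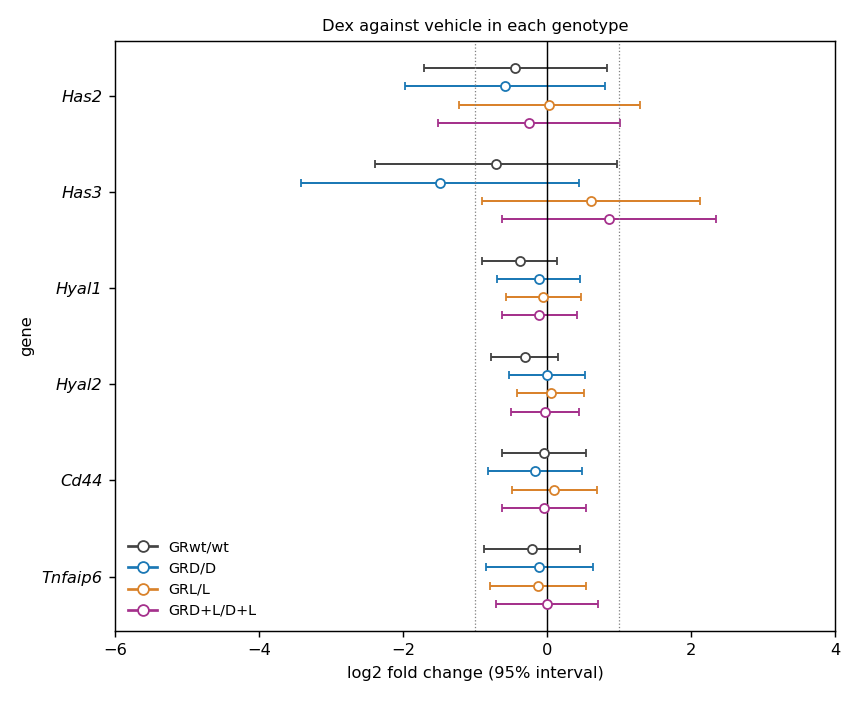
LFC of Dex against vehicle (x axis, log2 units, with 95% interval) for the 6 tested members (y axis), with a colour for each genotype and dotted lines at LFCs of -1 and 1. Every interval includes 0, and those of Has2 and Has3 are the widest, for example -1.72 to 0.83 for Has2 in GRwt/wt.

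Tnfaip6 (chr2:52038009-52056686, plus strand) encodes TSG-6. The sequence before the gene start is shown because Tnfaip6 is the member whose level separated a genotype, and because it was the only member of the 5 with a promoter in the RefSeq table (Cd44, Has1, Hyal1, Hyal2 and Tnfaip6) whose window held the AP-1 letters TGAGTCA or their reverse complement TGACTCA. AP-1 is a transcription factor activated by stress and growth signals. The stretch below covers chr2:52037863-52038008 of GRCm38.p6, plus strand, up to the base before the annotated gene start, with the AP-1 letters in capitals. They begin at position -142 counted from the RefSeq transcription start.
Tnfaip6 upstream: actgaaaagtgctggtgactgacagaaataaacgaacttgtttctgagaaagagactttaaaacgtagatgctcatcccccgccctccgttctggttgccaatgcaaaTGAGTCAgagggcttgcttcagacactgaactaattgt
Of the 32851 RefSeq promoter windows, which reach from 250 bases before to 50 after a start, 5.2% held these AP-1 letters. The receptor motif core AGAACA (or TGTTCT) was in 19% of windows and, among the 5 members, in that of Has1. A match of letters describes the sequence and says nothing of binding in these cells.

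In GRD+L/D+L cells Tnfaip6 was measured at 2.44, 2.06 and 1.65 CPM in vehicle and at 2.23, 2.01 and 1.89 CPM under Dex. GRwt/wt cells had 4.85, 8.11 and 12.2 CPM in vehicle and 4.70, 10.6 and 6.43 CPM under Dex. Every GRD+L/D+L library was below every GRwt/wt library, and the mutant values covered a narrower range. The single mutants overlapped the GRwt/wt range. GRD/D had 9.31 and 9.36 CPM in vehicle and 8.23, 10.8 and 6.89 CPM under Dex, and GRL/L had 8.44, 12.2 and 11.2 CPM in vehicle and 7.13, 11.6 and 10.4 CPM under Dex. All 6 GRD+L/D+L libraries, from 3 cultures, thus lay below the 17 others, a pattern shared by 86 of the 15748 genes (0.546%).

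In vehicle, Tnfaip6 was 2.05 ± 0.39 CPM (SD, n = 3) in GRD+L/D+L and 8.40 ± 3.70 CPM (SD, n = 3) in GRwt/wt. The LFC was -2.03 (SE 0.34, 95% interval -2.74 to -1.32, edgeR adjusted p = 0.00115). It was 1 of 6 members called, in a comparison that called 8.32% of all genes (4.71% lower and 3.62% higher), and the only member at an unadjusted p under 0.05, which 35.6% of genes reached. Under Dex the LFC was -1.82 (SE 0.34, 95% interval -2.53 to -1.11, edgeR adjusted p = 0.00636), beside 2.75% of all genes called (1.87% lower and 0.876% higher). Tnfaip6 and Has3 reached an unadjusted p under 0.05 there, as did 20.9% of genes. Leaving out any 1 library of the groups compared kept both calls, with LFCs from -2.29 to -1.61 in vehicle and from -2.05 to -1.44 under Dex. The Tnfaip6 transcript is of low GC content (41.1%, percentile 10.1), its deviation in GRwt/wt vehicle replicate 1 was -0.70 log2 units, and without that library the vehicle LFC was -2.29. Fitted without the libraries of the single mutants, the LFCs were -2.0 and -1.81 and both calls were lost (edgeR adjusted p = 0.0515 and 0.136). The GRwt/wt libraries with the lowest macrophage marker sums, Dex replicate 3 (16.7 CPM) and vehicle replicate 2 (17.6 CPM), had Tnfaip6 at 6.43 and 8.11 CPM, and the GRD+L/D+L libraries with the highest sums (83.2 and 86.9 CPM) had it at 2.23 and 2.44 CPM. Within GRwt/wt, the libraries with the highest sums, vehicle replicate 3 (5188 CPM) and Dex replicate 2 (106 CPM), had the highest Tnfaip6 levels (12.2 and 10.6 CPM), and in GRD/D the library with the highest sum (1838 CPM) had the highest level (10.8 CPM). In GRL/L the library with the highest sum, Dex replicate 1 (814 CPM), had the lowest level (7.13 CPM). The part of these cells in the Tnfaip6 level was not tested.

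In the single mutants Tnfaip6 did not pass the test against GRwt/wt. The LFC was 0.34 (SE 0.32, 95% interval -0.33 to 1.00) for GRL/L and 0.15 (SE 0.35, 95% interval -0.59 to 0.90) for GRD/D in vehicle, and 0.42 and 0.26 under Dex. GRD+L/D+L cells were therefore also compared with each single mutant, a test added after these values were seen. Against GRL/L the LFC was -2.37 in vehicle (SE 0.34, edgeR adjusted p = 0.00720) and -2.24 under Dex (SE 0.34, edgeR adjusted p = 0.0145). These comparisons called few genes in all, 15 (0.0953%) in vehicle and 19 (0.121%) under Dex. Against GRD/D the LFC was -2.18 in vehicle (SE 0.36, edgeR adjusted p = 0.00899; 1.02% of genes called) and -2.08 under Dex (SE 0.34, edgeR adjusted p = 0.00194; 3.61% called). All of these share the GRD+L/D+L libraries with the comparison to GRwt/wt. The macrophage marker sums of both single mutants were above those of GRD+L/D+L in every library, and the part of this in the difference was not tested.

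With libraries left out in turn, the Tnfaip6 LFC against the single mutants stayed between -2.51 and -1.88, but the adjusted p did not always hold. Against GRL/L in vehicle it was 0.0912 without GRD+L/D+L vehicle replicate 2 and 0.0603 without replicate 3. Against GRL/L under Dex it was 0.0982 without GRL/L replicate 2 and 0.136 and 0.0885 without replicates 2 and 3 of GRD+L/D+L. Against GRD/D in vehicle it was 0.0998 and 0.0683 without GRD/D replicates 1 and 2 and 0.0630 without replicate 2 of GRD+L/D+L, all by edgeR. Against GRD/D under Dex the call held in all 6 such fits.

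A Tnfaip6 response to Dex was not detected. The LFC was -0.21 (SE 0.32, 95% interval -0.88 to 0.46) in GRwt/wt and 0.00 (95% interval -0.71 to 0.70) in GRD+L/D+L, and its interactions ranged from 0.09 to 0.21.

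For the other members, the genotype comparisons gave no call by edgeR, while DESeq2 called Has3 as higher in GRD+L/D+L than in GRwt/wt under Dex (LFC 2.05, adjusted p = 0.045), where it called 5.19% of all genes. In vehicle 0 of 6 members were called in GRD/D (0.00635% of all genes) and in GRL/L (7.78%), with 0 and 1 member (Hyal2) at an unadjusted p under 0.05, beside 12.4% and 37.1% of genes. Under Dex 0 of 6 were called in GRD/D (0.254%) and in GRL/L (2.59%), with 0 members at an unadjusted p under 0.05 in each, beside 11.1% and 22.7% of genes. DESeq2 made 0 calls in these 4 comparisons of the single mutants, beside 0.221% (GRD/D) and 9.8% (GRL/L) of genes in vehicle and 1.77% and 4.9% under Dex. It gave no adjusted p for Has3 in GRD/D in vehicle.

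**Figure D3:**
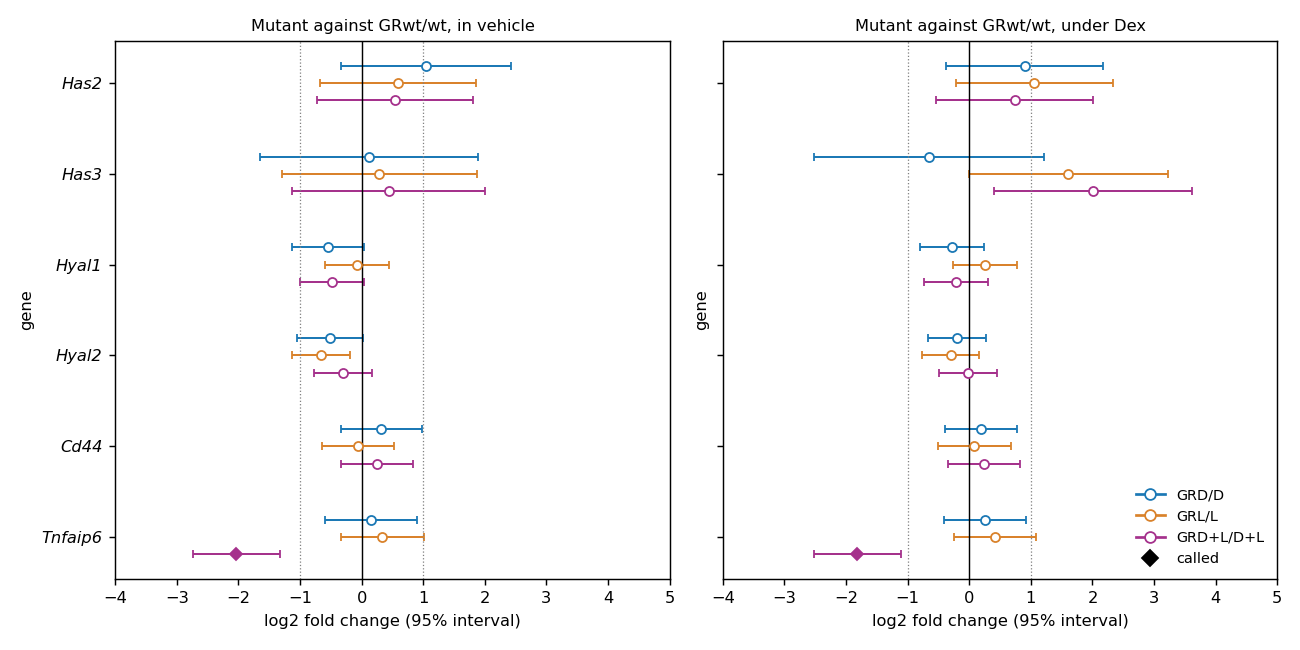
LFC of each mutant against GRwt/wt (x axis, log2 units, with 95% interval) for the 6 tested members (y axis), in vehicle (left) and under Dex (right). Filled diamonds mark called genes and dotted lines LFCs of -1 and 1, and the only diamonds are Tnfaip6 in GRD+L/D+L at -2.03 and -1.82.

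A list of 37 further genes of the pathway was counted beside the members, and 26 of them passed the filter. Per transcript length, the most abundant of each role were Ugp2 for precursor synthesis (35.6 FPKM, an enzyme that makes UDP-glucose), Hexa for degradation (158.8 FPKM, a lysosomal hexosaminidase), Layn among receptors (17.3 FPKM), Vcan for matrix binding (57.6 FPKM, the proteoglycan versican) and Ptx3 among the partners of heavy chain transfer (47.1 FPKM, a pentraxin that binds TSG-6). For Dex 0 of the 26 were called in any genotype by edgeR, with 4 at an unadjusted p under 0.05 in GRwt/wt (beside 15.6% of all genes), 1 in GRD/D (0.978%) and 0 in the others. DESeq2 called Stab1 as lower in GRwt/wt (beside 1.86% of all genes called) and made 0 calls in the mutants. Stab1 was at 187.7 CPM in GRwt/wt vehicle replicate 3, the library with the macrophage marker sum of 5188 CPM, and at 2.20 CPM or less in every other library of that genotype. In the interactions edgeR and DESeq2 made 0 calls, with 1 (GRL/L), 3 (GRD/D) and 1 (GRD+L/D+L) genes at an unadjusted p under 0.05, beside 6.29%, 7.11% and 5.05% of all genes.

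In vehicle, GRD+L/D+L against GRwt/wt, 2 of the 26 were called higher and 3 lower by edgeR, beside 3.62% and 4.71% of all genes, and 12 were at an unadjusted p under 0.05, beside 35.6%. DESeq2 called 2 higher and 4 lower, adding the link protein gene Hapln1, in a comparison where it called 10.7% of all genes. Hapln1 was at 0.055, 11.5 and 0.136 CPM in GRwt/wt and at 0.466, 0 and 0.118 CPM in GRD+L/D+L. The cartilage markers summed to 49.0, 77.8 and 25.5 CPM in GRwt/wt and to 240, 10.5 and 17.1 CPM in GRD+L/D+L. The part of cartilage cells in the Hapln1 level was not tested. Higher by edgeR were Vcan and Cemip2, a transmembrane protein linked to hyaluronan breakdown. Vcan was at 1368, 1434 and 1084 CPM in GRD+L/D+L and at 15.8, 283 and 490 CPM in GRwt/wt (LFC 2.30, SE 0.68, edgeR adjusted p = 0.0253). The lowest of these is the library that stands apart, and without it the LFC was 1.76 (edgeR adjusted p = 0.00420). Without GRD+L/D+L vehicle replicate 2 the adjusted p was 0.0657. Cemip2 was at 47.1, 107.8 and 95.9 CPM in GRD+L/D+L and at 26.8, 34.4 and 45.4 CPM in GRwt/wt (LFC 1.23, SE 0.27, edgeR adjusted p = 0.00505). The GRD+L/D+L libraries lay above all 3 GRwt/wt libraries for both genes, as they did for 13.4% of the genes tested. The 5 endothelial markers summed to 3.42, 18.5 and 16.7 CPM in GRD+L/D+L vehicle and to 5.41, 9.34 and 8.83 CPM in GRwt/wt vehicle. The GRD+L/D+L sums in replicates 2 and 3 were mostly Kdr (17.8 and 15.5 CPM), with Tek at 0.457 and 0.589 CPM and Pecam1 at 0. Under Dex the GRwt/wt sums were 14.7, 5.86 and 9.86 CPM, with Cemip2 at 36.6, 37.3 and 35.1 CPM. The part of endothelial cells in the Cemip2 level was not tested.

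Lower by edgeR were Cemip, Ptx3 and Stab1. Cemip, which encodes a hyaluronan-depolymerizing protein of fibroblasts, was at 70.7, 34.0 and 64.7 CPM in GRD+L/D+L and at 283, 183 and 126 CPM in GRwt/wt (LFC -1.80, SE 0.58, edgeR adjusted p = 0.0371). Its adjusted p was 0.102 without GRwt/wt replicate 1 and 0.0602, 0.136 and 0.0828 without GRD+L/D+L replicates 1, 2 and 3. Ptx3 was at 71.5, 4.48 and 10.4 CPM in GRD+L/D+L and at 73.0, 417 and 169 CPM in GRwt/wt (LFC -2.93, SE 1.02, edgeR adjusted p = 0.0493). GRD+L/D+L replicate 1 was close to the lowest GRwt/wt library, and without it the LFC was -4.87 (edgeR adjusted p = 0.0107). The Ptx3 call was lost without GRwt/wt replicate 2 (LFC -2.08, edgeR adjusted p = 0.145) and without GRD+L/D+L replicates 2 and 3 (0.149 and 0.156). Stab1, a scavenger receptor of macrophages and sinusoidal endothelium, owed its LFC of -5.57 (edgeR adjusted p = 0.0385) to GRwt/wt replicate 3, at 187.7 CPM against 0.165 and 0.268 CPM in the other GRwt/wt vehicle libraries. Without that library the LFC was 2.61 (edgeR adjusted p = 0.181), and without GRD+L/D+L replicates 1, 2 and 3 the adjusted p was 0.0768, 0.127 and 0.108. Fitted with these genotypes alone, none of the 5 was called (edgeR adjusted p from 0.0855 to 0.229).

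Under Dex the same comparison called Cemip2 among the 26 (LFC 1.23, SE 0.27, edgeR adjusted p = 0.0173), and 0.876% of all genes were called higher. DESeq2 called Cemip2 as higher and Hapln1, Hapln4 and Ptx3 as lower (5.19% of all genes called). The edgeR call of Cemip2 was lost without replicate 1 or 3 of GRwt/wt Dex or replicate 2 or 3 of GRD+L/D+L Dex (edgeR adjusted p from 0.0513 to 0.0997), while the LFC stayed between 1.02 and 1.48. For the other genotypes edgeR called 0 of the 26. At an unadjusted p under 0.05 there were 6 in GRD/D (beside 12.4% of all genes) and 5 in GRL/L (37.1%) in vehicle, and 7 (11.1%) and 4 (22.7%) under Dex. DESeq2 called Vcan as higher in GRL/L in vehicle (9.8% of all genes called). Under Dex it called Stab1 as higher and Hapln1 as lower in each of these genotypes (1.77% of all genes called in GRD/D and 4.9% in GRL/L), and it made 0 calls for GRD/D in vehicle. Macrophage marker sums under Dex were 287 to 1838 CPM in GRD/D, 327 to 814 CPM in GRL/L and 16.7 to 106 CPM in GRwt/wt. The cartilage sums were 14.5 to 18.2, 16.4 to 51.7 and 42.5 to 144 CPM in the same order. Hapln1 was at 0.354 to 27.4 CPM in GRwt/wt under Dex. The part of these cells in the calls was not tested.

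**Figure D4:**
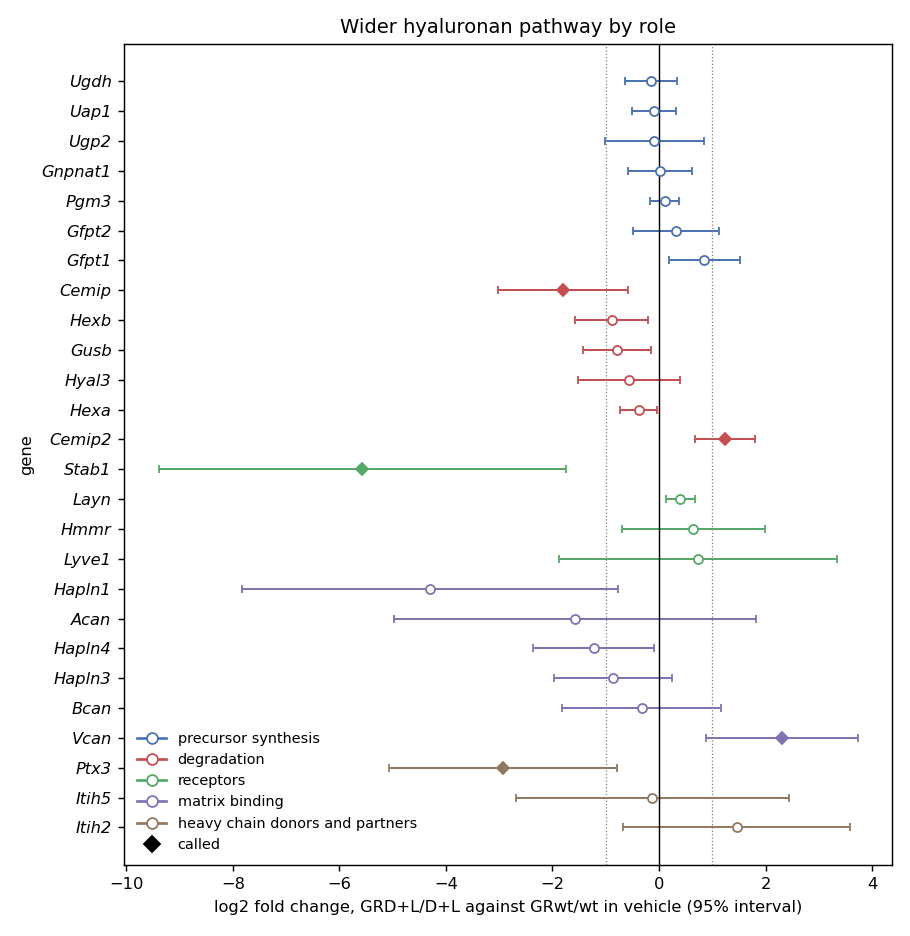
LFC of GRD+L/D+L against GRwt/wt in vehicle (x axis, log2 units, with 95% interval) for the 26 tested genes of the wider pathway (y axis), coloured by role, with dotted lines at LFCs of -1 and 1. Filled diamonds are the called genes Cemip, Cemip2, Stab1, Vcan and Ptx3, the interval of Stab1 runs from -9.38 to -1.75, and none of the 7 genes of precursor synthesis is called.

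Correlations across the 23 libraries are given as a description, since libraries of a genotype share cultures and 1 library stands apart. Has2 and Cd44 varied together (Pearson r = 0.80 of log2 CPM, 0.654 in 22 libraries without GRwt/wt vehicle replicate 1). Among 13241 genes with a mean of at least 1 CPM, those most like Has2 were Zswim6, Pus3 and Uba6 (r = 0.911, 0.902 and 0.901). In the 22 libraries they were Ptgs2, Herc3 and Cxcl1 (r = 0.747, 0.747 and 0.732), of which Ptgs2 encodes the inducible cyclooxygenase and Cxcl1 a neutrophil chemokine. For Tnfaip6 they were Slc1a3, Lypd6 and Unc93b1 (r = 0.918, 0.900 and 0.891), and in the 22 libraries Slc1a3, Crabp1 and Adh7 (r = 0.921, 0.918 and 0.910). Slc1a3 encodes a glutamate transporter. Puf60, Sart1 and Pcbp4 were most like Hyal2 (r = 0.954, 0.940 and 0.928) and were also the first 3 in the 22 libraries. Nras, Has2 and Thumpd3 were most like Cd44 (r = 0.826, 0.80 and 0.782), Fes, Gbp2 and Pced1b most like Hyal1 (r = 0.773, 0.768 and 0.756) and Mir351, Slc25a28 and Spred3 most like Has3 (r = 0.783, 0.762 and 0.760). In the 22 libraries these lists became Thumpd3, Hk2 and Ipo13 for Cd44 (r = 0.817, 0.776 and 0.759), Ptpre, Gbp2 and Oasl2 for Hyal1 (r = 0.821, 0.808 and 0.792) and Gm45902, Mir351 and Mark2 for Has3 (r = 0.787, 0.785 and 0.774).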

How the data were processed

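RNA-seq libraries were made from MEFs with a TruSeq kit. Per the labels and the study's methods, the authors aligned reads to mm10 (GRCm38) with HISAT2 2.1.0, and used featureCounts 2.0.0 for the uniquely mapped ones. The deposited values are raw counts per Ensembl gene, and neither the annotation release nor the strand setting is given in the sources used here. Reads of genes with shared exons could therefore not be assigned with certainty: Has2 shares 182 bases with Has2os and Has3 352 bases with Chtf8 on the other strand, and Hyal1 shares 1920 bases with Naa80 and 159 with Hyal3 on its own strand.

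Symbols, positions and exon lengths for FPKM were taken from GENCODE M21 (GRCm38), which named 55227 of the 55487 identifiers. Genes were kept with filterByExpr, scaled with TMM and fitted in edgeR 4.0.16 (R 4.3.3) with 1 mean per group over all 23 libraries. P-values were adjusted over all 15748 genes kept. Each SE is the size of the LFC over the square root of F. No replicate pair of libraries agreed within sampling noise. Alternatives were RLE and upper-quartile scaling, no filter, a minimum of 10 counts in every library, the adjusted p alone, DESeq2 1.42.0, a prior count of 2, only the genotypes compared, a replicate block and each library left out. P-values measure the spread between cultures. The script was tested on simulated data.

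Same-numbered vehicle and Dex libraries deviated together in GRL/L (r = 0.431, 0.741 and 0.733) and GRD+L/D+L (0.928, 0.847 and 0.773). They did not throughout GRwt/wt (0.572, 0.065 and 0.032) or GRD/D (0.339 and -0.233). Ratios of Dex to vehicle by number are therefore given only for the first 2 genotypes. The main fit used no pairing. For Dex and the interactions, the replicate block paired libraries by number in every genotype, also where they did not deviate together. Between genotypes, the block was the number alone. All members were named. Of the wider pathway, genes called by edgeR in any comparison, those that only DESeq2 called (named after their values were seen) and those most abundant in their role were named, and for each member the 3 genes most alike in pattern. The members and lists were chosen with earlier results of these data known.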

Additional observations from a re-analysis of the deposited data

How the results depend on the processing

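The number of members called was recomputed in 217 combinations of comparison and alternative, and 213 gave the same number. The exceptions were 1 member (Hyal2) instead of 0 for GRL/L against GRwt/wt in vehicle with the adjusted p alone, 2 members (Has3 and Tnfaip6) instead of 1 for GRD+L/D+L against GRwt/wt under Dex with DESeq2, and 0 instead of 1 for GRD+L/D+L against GRwt/wt, in vehicle and under Dex, when only the genotypes compared were fitted. That fit holds fewer libraries, and the main fit shares its estimate of spread over all groups. The Tnfaip6 SD in vehicle was 3.70 (GRwt/wt), 0.394 (GRD+L/D+L), 1.95 (GRL/L) and 0.0363 CPM (GRD/D, n = 2). The part of either in the lost calls was not tested. Leaving out 1 library changed none of 93 counts.

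With the replicate block, all 13 counts were the same (1 for GRD+L/D+L against GRwt/wt in vehicle and under Dex, 0 otherwise), and the Tnfaip6 LFCs were -1.99 and -1.77. Between genotypes the block joins different cultures that share a number, so it does not test whether these calls depend on pairing. The block turned the sign of uncalled values: 0.10 for Has2 and 0.0319 for Cd44 with Dex in GRwt/wt, and for the Has2 differences from GRwt/wt -0.0672 (GRL/L) and -0.31 (GRD+L/D+L). It ended the calls of Stab1 (LFC -5.85, edgeR adjusted p = 0.0582) and Ptx3 (LFC -3.19, edgeR adjusted p = 0.0637) and no other. In GRwt/wt the same number was not always the most alike pair.

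With 1 library left out, values that changed sign ranged from -0.99 to 0.0192 for Has2 with Dex in GRwt/wt, -0.15 to 0.16 in GRL/L and -0.53 to 0.10 in GRD+L/D+L, and from -0.34 to 0.32 for Cd44 with Dex in GRwt/wt. The Has2 differences from GRwt/wt ranged from -0.61 to 0.39 in GRD/D and from -0.28 to 0.73 in GRD+L/D+L, Tnfaip6 in GRD/D against GRwt/wt in vehicle from -0.12 to 0.57, and Stab1 in GRD+L/D+L against GRwt/wt in vehicle from -6.15 to 2.61. With GRwt/wt vehicle replicates 1 and 3 both left out, a setting chosen after seeing the data, the GRD/D difference for Has2 was 0.34 and the Stab1 LFC 2.25. The causes were not tested. Of 461 single fold changes, 400 kept direction and side of the threshold, 37 lost and 2 gained a call, and 22 changed sign. The common biological coefficient of variation was 0.3481, groups held 2 or 3 cultures, and Has1 and Has3 lay near the limit of depth.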

Other observations

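Some further genes are given as values and were chosen after these were seen. In vehicle, Acan (aggrecan) was at 8.94, 6.55 and 0.317 CPM in GRwt/wt replicates 1 to 3 and at 5.29, 0 and 0 CPM in GRD+L/D+L. Hapln1, the cartilage link protein gene, was at 11.5 CPM in GRwt/wt replicate 2 and at 0.055 and 0.136 CPM in replicates 1 and 3. Itih2, which encodes a heavy chain of the kind that TSG-6 transfers, was at 86.7 CPM in GRD+L/D+L replicate 1 and at 10.2 and 5.53 CPM in replicates 2 and 3. None of these genes was called in the 13 comparisons by edgeR, while DESeq2 called Hapln1 as lower than in GRwt/wt in 4 of them, GRD+L/D+L in vehicle and each mutant under Dex. Has2os, the antisense gene of Has2, had 8 to 33 counts in a library, against 21 to 637 for Has2.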
